A study of Mus musculus with 9 samples.

Results

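The interferon regulatory factors are transcription factors that share a helix-turn-helix domain binding interferon-stimulated response elements (ISREs) in DNA. Irf9 joins Stat2 in ISGF3, the complex that type I interferon receptors switch on through the kinases Jak1 and Tyk2. Irf3 and Irf7 induce the interferon genes themselves, Irf1 and Irf2 act on many shared elements as activator and repressor, and Irf4 and Irf8 direct the development of lymphoid and myeloid cells. In natural killer (NK) cells, lymphocytes that kill infected and transformed cells, Irf1, Irf2 and Irf8 are known from mouse knockouts to be needed for normal numbers or responses.

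The family was taken by its Irf gene symbols in the platform annotation, and 7 of the 8 members with a listed probe set were among the 12579 genes tested: Irf1, Irf2, Irf3, Irf4, Irf7, Irf8 and Irf9. The probe set listed for Irf5 carried a second gene symbol, so no value is given for Irf5. Each of the 7 members read above the median of its array on all 9 arrays. Where a gene had several probe sets, the brightest stood for it.

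Expression was measured on Affymetrix arrays in NK cells from spleens of female mice on the C57BL/6N background, of 3 genotypes: Tyk2-/-, which lack Tyk2; Tyk2K923E, which carry a kinase-inactive form of it; and wild type (WT). Cells were enriched with beads against the surface marker DX5, pooled from 3 to 4 mice of a genotype and kept in culture with human IL-2 (5000 U/ml, recombinant) for 7 days, with no interferon treatment named in the labels. There were 3 independent experiments, with 1 array per genotype in each. The 3 arrays of a genotype are therefore separate pools, and no array measures 1 mouse. Since RNA came from bulk cultures, fewer cells of a type and less RNA per cell cannot be told apart.

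The deposited values are on a log2 scale, with array medians of 5.42 to 5.48. The first principal component, with 61.0% of the variance, set the arrays of experiment 1 apart from the other arrays, so genotypes were compared within experiments (limma with the experiment as a block, Benjamini-Hochberg adjustment over all genes tested, threshold 0.05), and unpaired values stand beside them where a call depends on the pairing. All 10 NK cell markers passed the filter, with a mean over the list of 10.9 on each Tyk2-/- array, 10.8 to 11.0 in Tyk2K923E cells and 11.0 to 11.1 in WT cells. Of the NK markers, 5 read lower and 5 higher in Tyk2-/- than in WT cells, and 6 read lower and 4 higher in Tyk2K923E cells. Only Itga2, the DX5 antigen itself, passed. It fell by 0.71 in Tyk2K923E cells relative to WT (limma adjusted p = 0.0375, and 0.155 unpaired). In the same comparison Klrk1 differed by -0.47 and Prf1 by 0.19 (limma adjusted p = 0.0734 and 0.32). In Tyk2-/- cells Itga2 differed from WT by -0.39 (limma adjusted p = 0.254). Tyk2 read 9.55, 8.63 and 8.85 in Tyk2-/- cells, 8.63, 8.43 and 8.52 in Tyk2K923E cells and 8.68, 8.56 and 8.63 in WT cells. Which part of Tyk2 was deleted and where its probes lie are not given in the sources used here, so this probe set does not check the labels.

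None of the 7 members passed the adjusted threshold in any comparison of genotypes, paired or unpaired. Among all genes, 0.0874% passed in Tyk2-/- against WT and also in Tyk2K923E against WT (0.0318% and 0.00795% unpaired), and 0.0238% passed between Tyk2-/- and Tyk2K923E, so a count of 0 among 7 members is no result about the family. At an unadjusted p under 0.05, 2 members read lower and 0 higher in Tyk2-/- cells than in WT cells (Irf9 and Irf7), where 4.66% of all genes read lower and 4.42% higher. By the same measure 4 members read lower in Tyk2K923E cells (Irf9, Irf7, Irf1 and Irf4) and 1 higher (Irf8), with 5.14% of all genes lower and 4.87% higher. The median difference of the 7 members was -0.079 in Tyk2-/- against WT and -0.29 in Tyk2K923E against WT, where the medians of all genes were 0.0045 and 0.0020. In Tyk2-/- cells 5 members read lower than in WT in all 3 experiments and in Tyk2K923E cells 4 did, as did 13.6% and 14.6% of all genes. The arrays of a mutant lay wholly below those of WT for 1 member in Tyk2-/- and 2 in Tyk2K923E (2.74% and 3.8% of all genes) and wholly above for 0 (2.58% and 3.43%). Both comparisons share the WT arrays, and the members were taken up with results of these arrays known.

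**Figure D1:**
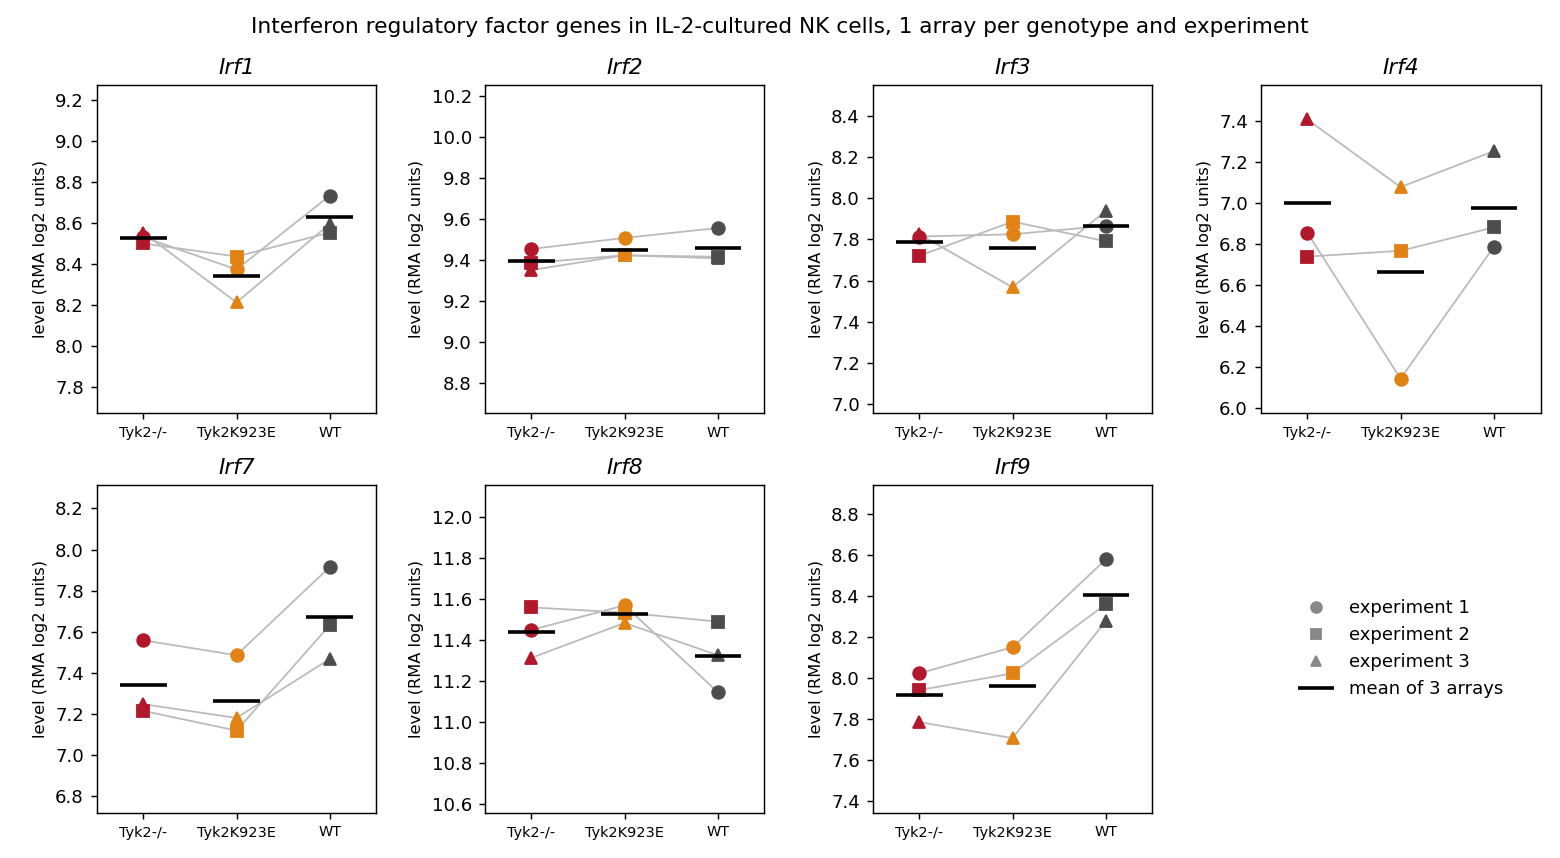
Log2 level of each of the 7 interferon regulatory factor genes tested on the 9 arrays, with genotype on the horizontal axis (Tyk2-/-, Tyk2K923E, WT), 1 point per array shaped by experiment, thin lines joining arrays of an experiment and a bar at the mean of 3 arrays. Irf9 lies between 7.71 and 8.15 on the 6 mutant arrays and between 8.28 and 8.58 on the WT arrays, whereas Irf2 stays within 9.35 and 9.56 in all genotypes.

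Irf9, the DNA-binding subunit of ISGF3, was the member with the smallest p in both comparisons with WT. Its probe set (17300591, chromosome 14) read 8.02, 7.94 and 7.79 in experiments 1 to 3 of Tyk2-/- cells, 8.15, 8.02 and 7.71 in Tyk2K923E cells, and 8.58, 8.36 and 8.28 in WT cells. Every mutant array lay below every WT array, with no overlap. The mean was 7.92 ± 0.12 in Tyk2-/- cells, 7.96 ± 0.23 in Tyk2K923E cells and 8.41 ± 0.16 in WT cells (SD, n = 3 each). The difference of Irf9 between Tyk2-/- and WT was -0.49 (SE 0.067, 95% confidence interval -0.64 to -0.33), or 0.713 times the WT level, with an unadjusted p of 8.21e-05 and an adjusted p of 0.0649 in limma. Between Tyk2K923E and WT, Irf9 differed by -0.45 (SE 0.067, interval -0.60 to -0.29), or 0.734 times the WT level, with an unadjusted p of 0.000158 and an adjusted p of 0.0684 in limma. Smaller p-values were reached by 14 genes for Tyk2-/- and 28 for Tyk2K923E. Without the pairing, the limma adjusted p of Irf9 was 1 for Tyk2-/- and 0.817 for Tyk2K923E, while under 3 of the 22 alternatives it passed the threshold in both. Both differences of Irf9 lay below the 5th percentile of all genes, which was -0.19 for Tyk2-/- and -0.20 for Tyk2K923E.

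Irf7, which amplifies type I interferon production and is itself a target of ISGF3, read lower in both mutants as well. It read 7.56, 7.21 and 7.25 in Tyk2-/- cells, 7.48, 7.12 and 7.18 in Tyk2K923E cells, and 7.91, 7.63 and 7.47 in WT cells (probe set 17497813, chromosome 7). Within every experiment both mutants read below WT, but across experiments the genotypes overlapped, since the mutant arrays of experiment 1 lay above the WT array of experiment 3. The paired differences from WT were -0.36, -0.42 and -0.22 for Tyk2-/- and -0.43, -0.51 and -0.29 for Tyk2K923E. The mean difference of Irf7 was -0.33 for Tyk2-/- (SE 0.064, interval -0.48 to -0.18, limma adjusted p = 0.222) and -0.41 for Tyk2K923E (SE 0.064, interval -0.56 to -0.26, limma adjusted p = 0.0696). These correspond to 0.794 and 0.752 times the WT level. The unpaired adjusted p of Irf7 in limma was 1 in both.

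The sequence around the start of Irf9 and Irf7 is shown because these members read lower together. Each run holds 250 bases before and 50 bases after the annotated start (RefSeq, GRCm38.p6, 5′ to 3′ on the strand of the gene), at chr14:55603735-55604034, plus strand, for Irf9, where a second start is also annotated, and chr7:141266375-141266674, minus strand, for Irf7. Matches on either strand to the ISRE core (GAAA, 2 bases of any kind, then GAAA) or to the gamma-activated site (GAS) TTCNNNGAA, which Stat dimers bind, would stand in capitals.
Irf9: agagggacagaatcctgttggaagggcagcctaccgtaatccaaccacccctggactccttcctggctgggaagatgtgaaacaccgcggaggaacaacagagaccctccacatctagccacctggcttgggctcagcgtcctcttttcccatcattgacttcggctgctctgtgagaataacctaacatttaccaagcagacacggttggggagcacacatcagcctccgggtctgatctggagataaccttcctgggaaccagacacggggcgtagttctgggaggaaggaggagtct
Irf7: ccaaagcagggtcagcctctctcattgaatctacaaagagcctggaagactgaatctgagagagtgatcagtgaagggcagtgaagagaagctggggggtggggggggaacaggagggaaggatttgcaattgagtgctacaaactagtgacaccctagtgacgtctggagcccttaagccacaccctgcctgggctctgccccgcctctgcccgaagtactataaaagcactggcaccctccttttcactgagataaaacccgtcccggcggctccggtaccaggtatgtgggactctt
Neither window holds a match, and none of these capitals appear. That says only that the letters are not in these 300 bases. Among all 32851 windows of the table, 3.44% held the ISRE core and 8.3% the GAS motif. The 7 members had 10 windows in all, of which 1 held an ISRE core and 3 a GAS motif.

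Irf1, an activator induced by interferons through GAS elements that drives antigen presentation genes, had its lowest levels in Tyk2K923E cells. Its probe set (17249593, chromosome 11) read 8.53, 8.50 and 8.55 in Tyk2-/- cells, 8.37, 8.43 and 8.21 in Tyk2K923E cells, and 8.73, 8.55 and 8.59 in WT cells. All Tyk2K923E arrays lay below all WT arrays and below all Tyk2-/- arrays. Between the mutants the arrays were separate for no other member, with 2.89% of all genes wholly higher and 2.62% wholly lower in Tyk2-/- cells. The difference of Irf1 from WT was -0.10 for Tyk2-/- (SE 0.074, interval -0.27 to 0.073, limma adjusted p = 0.731) and -0.29 for Tyk2K923E (SE 0.074, interval -0.46 to -0.11, limma adjusted p = 0.216). Taken directly, Tyk2-/- minus Tyk2K923E was 0.19 for Irf1 (interval 0.016 to 0.36, limma unadjusted p = 0.0361, adjusted p = 0.487). By experiment it was 0.16, 0.063 and 0.34, and the mean without experiment 3 was 0.11. Leaving out arrays or experiments gave Irf1 differences of -0.15 to -0.048 for Tyk2-/- against WT.

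T cell markers read lower beside Irf1 in Tyk2K923E cells. The mean over the 8 T cell markers tested was 8.78, 8.71 and 9.07 in experiments 1 to 3 of Tyk2-/- cells, 8.35, 8.72 and 8.57 in Tyk2K923E cells and 8.96, 8.72 and 9.18 in WT cells. All 8 read lower in Tyk2K923E than in WT cells, with a median difference of -0.37, and 4 had an unadjusted p under 0.05 in limma (Lat, Cd8a, Cd8b1 and Cd3d), though none passed after adjustment. Of all genes, 5.14% read lower at that unadjusted threshold. Cd4 did not pass the filter. In experiment 2, where this mean read 8.72 in both Tyk2K923E and WT cells, Irf1 differed by -0.12, against -0.36 in experiment 1 and -0.38 in experiment 3. In Tyk2-/- cells 7 of the 8 markers read lower than in WT, with a median difference of -0.099. The part of T cells in the Irf1 values was not tested.

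Irf2, which competes with Irf1 for the same elements and is known as a repressor of interferon responses in mice, showed the narrowest range of the 7 members. It read 9.45, 9.39 and 9.35 in Tyk2-/- cells, 9.51, 9.42 and 9.42 in Tyk2K923E cells, and 9.56, 9.42 and 9.41 in WT cells (probe set 17501050, chromosome 8). The genotypes overlapped. The difference of Irf2 from WT was -0.063 for Tyk2-/- (interval -0.19 to 0.062, limma adjusted p = 0.765) and -0.0089 for Tyk2K923E (interval -0.13 to 0.12, limma adjusted p = 0.977). A change of Irf2 as large as the measured one of Irf9 lies outside both intervals.

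The start regions of Irf1 and Irf2 are shown because both hold matches to the motifs searched, which stand in capitals. They lie at chr11:53769764-53770063 for Irf1, where a second annotated window held none, and at chr8:46739495-46739794 for Irf2, both on the plus strand (RefSeq, GRCm38.p6).
Irf1: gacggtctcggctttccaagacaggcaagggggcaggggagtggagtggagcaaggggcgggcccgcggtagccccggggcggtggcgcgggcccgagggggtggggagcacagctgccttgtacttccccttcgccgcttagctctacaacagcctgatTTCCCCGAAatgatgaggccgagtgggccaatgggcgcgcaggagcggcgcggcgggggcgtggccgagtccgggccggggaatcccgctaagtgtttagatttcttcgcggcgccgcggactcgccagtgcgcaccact
Irf2: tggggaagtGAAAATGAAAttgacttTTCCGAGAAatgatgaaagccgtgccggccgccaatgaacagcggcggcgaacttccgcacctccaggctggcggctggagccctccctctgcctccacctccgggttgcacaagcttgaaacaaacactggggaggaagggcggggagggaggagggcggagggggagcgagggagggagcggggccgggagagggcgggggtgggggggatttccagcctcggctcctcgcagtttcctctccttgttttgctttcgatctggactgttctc
The capitals mark a GAS match in Irf1 at -90 to -82 from the start, and in Irf2 an ISRE core at -241 to -232 followed by a GAS match at -224 to -216. The other member with matches was Irf8, which has 2 GAS motifs at -171 to -163 and -153 to -145 in 1 of its 2 windows. A match is a description of the letters and not a bound site. Of the members with a GAS match, Irf1 read lower and Irf8 higher in Tyk2K923E than in WT cells, and Irf2 differed by -0.0089. None of these passed the adjusted threshold, and a link between motif and level was not tested.

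Irf3, the constitutively present factor that nucleic acid sensors activate to switch on the interferon beta gene, had overlapping levels in all genotypes. It read 7.81, 7.72 and 7.83 in Tyk2-/- cells, 7.83, 7.89 and 7.57 in Tyk2K923E cells, and 7.87, 7.79 and 7.94 in WT cells (probe set 17477655, chromosome 7). The lowest value, in experiment 3 of Tyk2K923E, set most of the mean difference from WT. That difference was -0.11 (interval -0.32 to 0.11, limma adjusted p = 0.771), and without this array it was 0.019. Tyk2-/- differed from WT by -0.079 (interval -0.29 to 0.14, limma adjusted p = 0.835), with -0.13 to -0.0036 on leaving out arrays or experiments.

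Irf4, which is induced by antigen receptor and cytokine signals in lymphocytes, varied more between experiments than between genotypes. It read 6.85, 6.74 and 7.41 in Tyk2-/- cells, 6.14, 6.77 and 7.08 in Tyk2K923E cells, and 6.79, 6.88 and 7.25 in WT cells (probe set 17286295, chromosome 13). The lowest array was experiment 1 of Tyk2K923E, which was also the array with the lowest T cell marker mean. Irf4 differed from WT by 0.027 for Tyk2-/- (interval -0.27 to 0.32, limma adjusted p = 0.968) and by -0.31 for Tyk2K923E (SE 0.13, interval -0.61 to -0.016, limma adjusted p = 0.469). The Tyk2K923E differences were -0.64, -0.11 and -0.18 by experiment, and the mean was -0.14 without experiment 1 and -0.13 without its Tyk2K923E array. The part of T cells in the Irf4 values was not tested.

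Irf8, which is needed for dendritic cell and monocyte development and is expressed in NK cells, was the member whose mean lay above WT in both mutants. Its brighter probe set (17506279, chromosome 8) read 11.45, 11.56 and 11.31 in Tyk2-/- cells, 11.57, 11.54 and 11.49 in Tyk2K923E cells, and 11.15, 11.49 and 11.33 in WT cells. The Tyk2K923E arrays lay near or above the highest WT array, and the groups overlapped by that array alone. Irf8 differed from WT by 0.12 for Tyk2-/- (interval -0.073 to 0.31, limma adjusted p = 0.705) and by 0.21 for Tyk2K923E (SE 0.083, interval 0.016 to 0.40, limma adjusted p = 0.45). By experiment the Irf8 differences were 0.30, 0.069 and -0.013 for Tyk2-/- and 0.42, 0.044 and 0.16 for Tyk2K923E. Without experiment 1 the means were 0.028 and 0.10, without its WT array alone 0.020 and 0.11, and without experiment 3 Tyk2-/- differed by 0.19.

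A dimmer probe set of Irf8 (17548703) gave 7.76, 7.89 and 7.58 in Tyk2-/- cells, 8.12, 7.67 and 7.68 in Tyk2K923E cells, and 7.48, 7.74 and 7.80 in WT cells. Its difference from WT was 0.069 for Tyk2-/- and 0.15 for Tyk2K923E (limma adjusted p = 0.915 and 0.802), with the genotypes overlapping. Genes listed as markers of other cell types were followed beside it. RNA came from bulk cultures, so these genes may also be read from the NK cells themselves. Basophil and mast cell genes averaged 8.28, 8.81 and 8.21 in Tyk2-/- cells, 9.30, 9.29 and 8.52 in Tyk2K923E cells and 8.36, 8.21 and 8.03 in WT cells over the 2 of 5 markers tested, Mcpt8 and Cpa3. Mcpt8 differed from WT by 0.49 in Tyk2-/- and by 0.77 in Tyk2K923E cells, and Cpa3 by -0.018 and 0.91. Fcer1a, Ms4a2 and Gata2 did not pass the filter. Of 7 dendritic cell markers with a probe set of their own, 4 were tested, and Flt3, Xcr1 and Siglech did not pass the filter. The 4 had a mean of 8.12 to 8.18 in Tyk2-/- cells, 8.17 to 8.27 in Tyk2K923E cells and 8.29 to 8.48 in WT cells. These genes did not move together. Itgax differed from WT by -0.88 in Tyk2-/- and by -0.68 in Tyk2K923E cells, and Bst2 by -0.12 and -0.092. Bst2 is also among the ISGF3 targets listed below. Zbtb46 differed by 0.023 and -0.015, and Tcf4 by 0.070 and 0.19. Of 7 monocyte and macrophage markers with a probe set of their own, 3 were tested, and Csf1r, Lyz2, Adgre1 and Fcgr1 did not pass. The mean of these 3 was 8.34 to 9.15 in Tyk2-/- cells, 8.76 to 9.05 in Tyk2K923E cells and 9.05 to 9.42 in WT cells. They went different ways. Cd14 differed from WT by 0.20 in Tyk2-/- and by 0.42 in Tyk2K923E cells. Itgam differed by -1.18 and -0.72, and Ly6c2 by -0.52 and -0.66. The part of basophils, mast cells, dendritic cells, monocytes and macrophages in the Irf8 values was not tested.

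**Figure D2:**
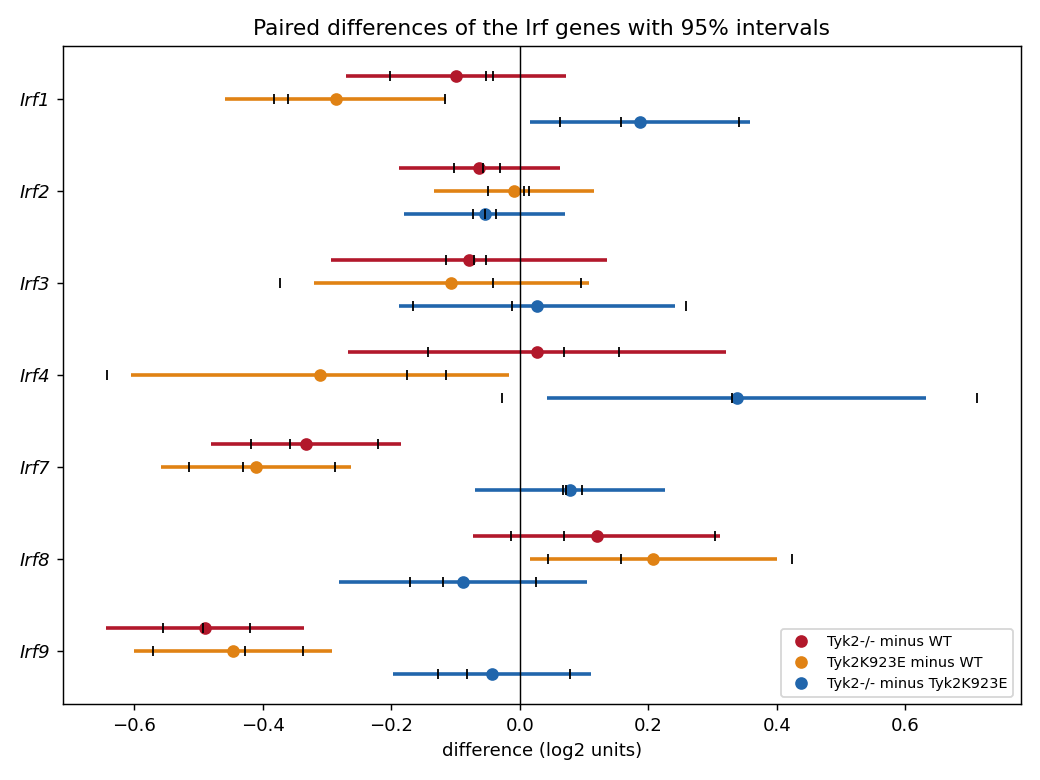
Paired log2 difference of each member in the 3 comparisons (Tyk2-/- minus WT, Tyk2K923E minus WT, Tyk2-/- minus Tyk2K923E), with points for the limma estimates, lines for their 95% confidence intervals and ticks for the 3 experiments. The intervals of Irf9 and Irf7 lie below 0 in both comparisons with WT, while those of Irf2 and Irf3 span 0 in all comparisons, and no member passed the adjusted threshold.

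The 2 mutants were also set against each other, which compares loss of the protein with a kinase-inactive protein. No member passed the adjusted threshold, and at an unadjusted p under 0.05 the members were 0 lower and 2 higher in Tyk2-/- than in Tyk2K923E cells (Irf4 and Irf1), with 4.89% and 4.79% of all genes. Irf4 differed by 0.34 (interval 0.043 to 0.63, limma adjusted p = 0.477), with 0.71 in experiment 1, -0.028 in experiment 2 and 0.33 in experiment 3. It was 0.15 without experiment 1, 0.16 without the Tyk2K923E array of experiment 1 and 0.52 without experiment 2. For Irf9 the difference between the mutants was -0.044, with an interval of -0.20 to 0.11 (limma adjusted p = 0.843). For Irf7 it was 0.079, with an interval of -0.069 to 0.23 (limma adjusted p = 0.692). These intervals bound the difference of Irf9 and Irf7 between the mutants, and do not show that their levels are equal. Irf2, Irf3 and Irf8 differed by -0.054, 0.027 and -0.088, and the Irf8 value lay between -0.16 and -0.027 on leaving out arrays or experiments.

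The members also differed in how much the experiment moved them. By limma's moderated F test, 3 of the 7 differed between experiments, Irf7 (adjusted p = 0.007), Irf4 (0.0149) and Irf9 (0.0194), where 28.7% of all genes did, so the share is not particular to the family. Irf7 averaged 7.65, 7.32 and 7.30 over the genotypes of experiments 1, 2 and 3, Irf9 averaged 8.25, 8.11 and 7.92, and Irf4 averaged 6.59, 6.79 and 7.24. The calls rest on single experiments: without experiment 1 none of the 3 members and 0 genes passed, and without experiment 3 Irf7 did and Irf4 and Irf9 did not. Leaving out single arrays also ended the call of Irf9 (experiment 1 or 3 of Tyk2K923E, or experiment 1 of WT) and of Irf4 (experiment 3 of Tyk2-/- or of Tyk2K923E).

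The variance of each member over the 9 arrays was also split into genotype, experiment and the rest, as a description without a test. Genotype held 70.8% for Irf9, 73.5% for Irf1 and 53.1% for Irf7, where the median over all genes was 15.5%. Experiment held 71.4% for Irf2 and 64.1% for Irf4, where the median over all genes was 47.2%. For Irf3, 75.0% lay in neither. The rest was 2.92% for Irf7 and 3.24% for Irf9.

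**Figure D3:**
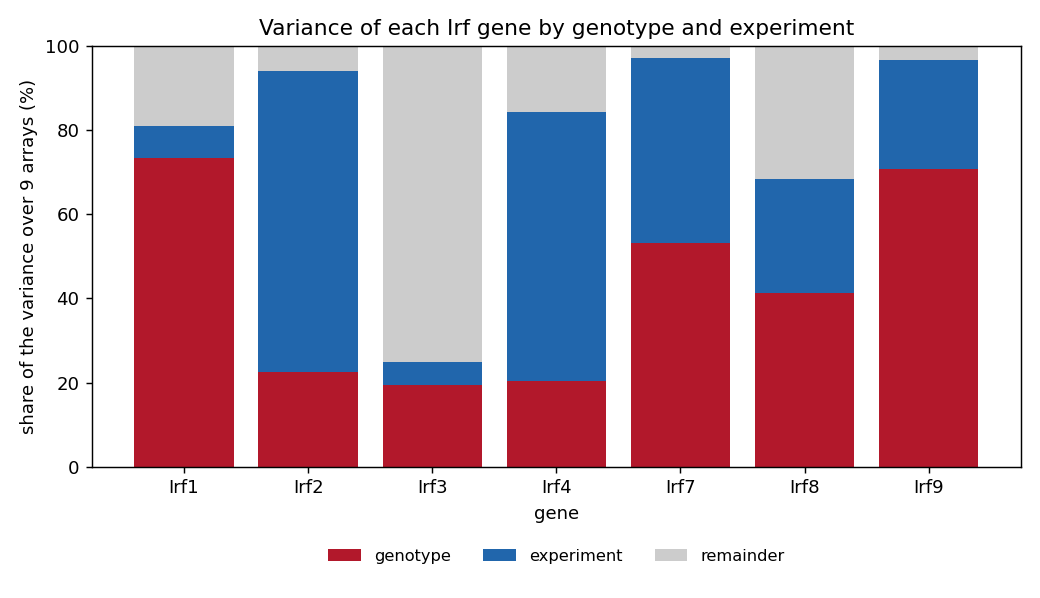
Share of each member's variance over the 9 arrays, in percent, that lies between genotypes, between experiments and in the rest. Genotype is the largest share for Irf1, Irf7, Irf8 and Irf9, experiment for Irf2 and Irf4, and the rest for Irf3.

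Likeness between genes was described by Pearson's r over the 9 arrays after each experiment's mean was taken away. These arrays share genotype contrasts, so such values are high for many genes and are given as a description. Within the family, Irf7 and Irf9 had the highest r (0.890), and Irf1 and Irf8 the lowest (-0.876). The genes most like Irf9 were Ssbp2 (0.988), Gbp3 (0.982) and Maf1 (0.971), and those most like Irf7 were Ifi27 (0.982), Gm19585 (0.977) and Arhgap45 (0.977). Of these, Gbp3 and Ifi27 are interferon-induced genes. Irf1 was most like Rcn1 (0.986), Dpp4 (0.981) and Mtmr3 (0.979), and Irf4 like Zfp367 (0.991), Ifna4 (0.988) and Skiv2l (0.985). Irf8 was most like Nt5dc3 (0.982), Glo1 (0.981) and Nr4a3 (0.981), Irf2 like Ctla2b (0.985), Zfp654 (0.985) and Crebrf (0.976), and Irf3 like Uqcc3 (0.958), Neu1 (0.956) and Zfp28 (0.955).

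Among genes that ISGF3 is known to switch on, most read lower in both mutants. Of the 28 tested of 40 listed, 27 read lower in Tyk2-/- and 28 in Tyk2K923E than in WT cells, with medians of -0.24 and -0.23. By limma 2 of these passed in Tyk2-/- (Ifi27 and Rtp4) and 4 in Tyk2K923E (Ifi27, Rtp4, Mx1 and Lgals3bp), all lower, and unpaired Ifi27 alone passed in each. At an unadjusted p under 0.05, 14 and 17 read lower and 0 read higher. Among all genes, 4.66% and 5.14% read lower and 4.42% and 4.87% higher. A gene could pass the filter through its WT arrays alone, since the median was asked on only 3 of the 9 arrays. Mx1, Trim30a, Oasl1 and Ifit2 had means below the array medians (5.42 to 5.48) in both mutants and above them in WT cells. Isg15 had means of 5.31 in Tyk2-/-, 5.43 in Tyk2K923E and 5.68 in WT cells, the Tyk2K923E mean lying below the medians of its own arrays. The counts of lower genes in this list are therefore in part set by the filter. Ifi27, an interferon-induced membrane protein, had 7.10 ± 0.11 in Tyk2-/- cells, 6.64 ± 0.18 in Tyk2K923E cells and 8.44 ± 0.21 in WT cells (SD, n = 3 each). It fell by 1.35 in Tyk2-/- cells (limma adjusted p = 0.000914) and by 1.80 in Tyk2K923E cells (limma adjusted p = 0.000278). Rtp4, a chaperone of membrane receptors, fell by 1.11 and by 1.40 (limma adjusted p = 0.0446 and 0.0375). Rtp4 had means of 5.68, 5.38 and 6.78 in Tyk2-/-, Tyk2K923E and WT cells, the Tyk2K923E mean lying below the array medians. The antiviral GTPase Mx1 differed by -0.54 in Tyk2-/- cells (limma adjusted p = 0.245), or by -0.36 without experiment 2, and fell by 0.96 in Tyk2K923E cells (0.0375). Its mean level was 5.32 in Tyk2-/-, 4.90 in Tyk2K923E and 5.85 in WT cells. Both mutant means lay below the array medians, so Mx1 could pass the filter through WT alone and its call is not independent support. The secreted glycoprotein Lgals3bp differed by -0.38 in Tyk2-/- cells (limma adjusted p = 0.223) and fell by 0.63 in Tyk2K923E cells (0.0375). Leaving out single arrays or whole experiments moved the number of ISGF3 targets called between 0 and 3 for Tyk2-/- and between 1 and 4 for Tyk2K923E. For Tyk2-/- it was 0 without experiment 1, where Ifi27 had a limma adjusted p of 0.111, and 1 without experiment 2 or 3, any Tyk2-/- array, the Tyk2K923E array of experiment 3 or the WT array of experiment 2 or 3. For Tyk2K923E it was 1 without experiment 2 or 3, the Tyk2-/- array of experiment 1 or 3, or the Tyk2K923E or WT array of experiment 2 or 3, and 2 without experiment 1 or its WT array.

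Between the mutants, 19 of the 28 ISGF3 targets read higher and 9 lower in Tyk2-/- than in Tyk2K923E cells, with a median of 0.10, and none passed. Ifi27 differed by 0.46 and Mx1 by 0.42 (limma adjusted p = 0.34 and 0.452).

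Target genes of Irf1 in antigen presentation and the response to interferon-gamma mostly read lower in both mutants as well. Of the 24 tested of 30 listed, 20 read lower in Tyk2-/- and 22 in Tyk2K923E than in WT cells, with medians of -0.078 and -0.28, and none passed the adjusted limma test. At an unadjusted p under 0.05, 6 read lower in Tyk2-/- and 13 in Tyk2K923E cells, where 4.66% and 5.14% of all genes did. The immunity-related GTPase Igtp differed by -0.45 in Tyk2K923E against WT cells (limma adjusted p = 0.132) and by 0.43 in Tyk2-/- against Tyk2K923E cells (limma adjusted p = 0.397). The inflammasome protease Casp1 differed from WT by -0.65 in both mutants (limma adjusted p = 0.254 in Tyk2-/- and 0.155 in Tyk2K923E). For the class I heavy chain H2-K1 the difference was -0.27 in Tyk2-/- and -0.31 in Tyk2K923E cells (limma adjusted p = 0.298 and 0.148). Between Tyk2-/- and Tyk2K923E cells the GTPase Iigp1 differed by 0.53 and the class I transactivator Nlrc5 by 0.42 (limma adjusted p = 0.452 for each), with 0.25 for Nlrc5 without experiment 1. Iigp1 had means of 5.93 in Tyk2-/-, 5.39 in Tyk2K923E and 5.69 in WT cells, the Tyk2K923E mean lying below the array medians. The guanylate-binding protein Gbp3 differed from WT by -0.29 in Tyk2-/- and by -0.26 in Tyk2K923E cells (limma adjusted p = 0.251 and 0.184). The mean over this list was 8.48 to 8.59 in Tyk2-/- cells, 8.33 to 8.53 in Tyk2K923E cells and 8.62 to 8.69 in WT cells. The T cell marker means given above were also lowest in 2 of the 3 Tyk2K923E arrays, and their part in these values was not tested.

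**Figure D4:**
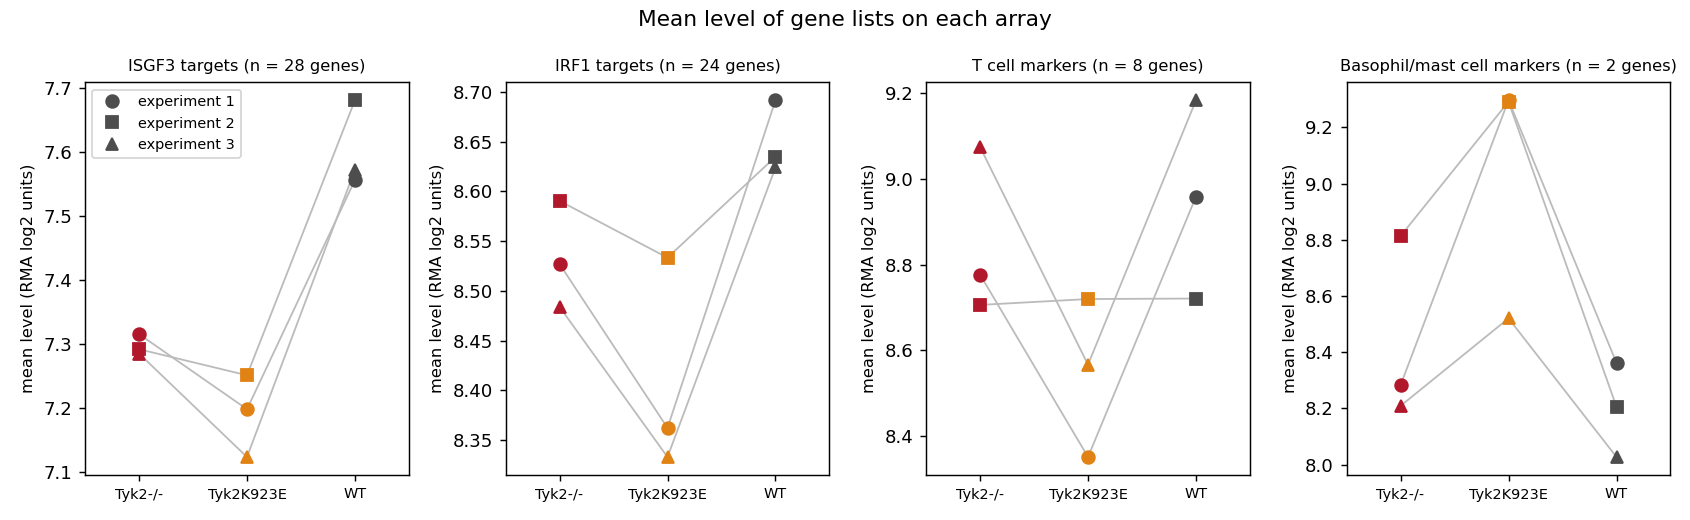
Mean log2 level per array of the ISGF3 targets, the Irf1 targets, the T cell markers and the basophil and mast cell markers, by genotype (Tyk2-/-, Tyk2K923E, WT), with lines joining the arrays of an experiment. The ISGF3 targets lie at 7.28 to 7.32 in Tyk2-/- cells, 7.12 to 7.25 in Tyk2K923E cells and 7.56 to 7.68 in WT cells. These ranges do not overlap. Some genes of the list could pass the filter through WT arrays alone, so the separation is in part set by the filter. The T cell markers overlap between the genotypes.

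The start regions of the listed targets were searched for the same motifs. A window with the ISRE core was found for 7 of 21 ISGF3 targets (33.3%) and 8 of 18 Irf1 targets (44.4%) that have a window, against 1 of 7 members (14.3%) and 3.99% of 27025 genes. The lists were drawn up as known targets, so this describes them and supports no comparison.

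Upstream of the family, the receptors, kinases, STATs and inhibitors of interferon signalling held 16 tested genes of 18 listed. Of these 12 read lower in Tyk2-/- and 14 in Tyk2K923E than in WT cells, with medians of -0.069 and -0.14, and none passed. Usp18, which blocks the type I interferon receptor, had the greatest differences of the list, -1.26 in Tyk2-/- and -1.19 in Tyk2K923E cells (limma adjusted p = 0.0915 and 0.0734). Il10rb, a shared receptor chain for IL-10 and interferon lambda, differed by -0.24 and -0.36 (limma adjusted p = 0.45 and 0.159), the Tyk2-/- value being -0.15 without the Tyk2-/- array of experiment 2 and -0.14 without that experiment. The feedback inhibitor Socs1 differed by -0.27 in Tyk2K923E against WT cells (limma adjusted p = 0.302) and by 0.27 in Tyk2-/- against Tyk2K923E cells (limma adjusted p = 0.452).

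The sensors, adaptors and kinases that activate Irf3, Irf5 and Irf7 held 18 tested genes of 23 listed, of which 14 read lower in each mutant than in WT cells, with medians of -0.035 in Tyk2-/- and -0.051 in Tyk2K923E cells. None passed the adjusted limma test. The nucleic acid sensor Zbp1, itself interferon-inducible, differed by -0.36 in both mutants (limma adjusted p = 0.192 in Tyk2-/- and 0.105 in Tyk2K923E). Sting1, the adaptor of the cytosolic DNA sensor, differed by -0.31 in Tyk2K923E cells (limma adjusted p = 0.155). The RNA sensor Dhx58 differed by -0.51 in Tyk2K923E cells (limma adjusted p = 0.261), or by -0.31 without the WT array of experiment 1, and the adaptor Ticam1 by -0.21 in Tyk2-/- cells (limma adjusted p = 0.377).

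The interferon genes, of which the type I genes are induced through Irf3 and Irf7, were represented by 7 tested of 19 listed, and Ifnb1 did not pass the filter. Of the 7, 4 read lower in each mutant than in WT cells, with medians of -0.044 in Tyk2-/- and -0.068 in Tyk2K923E cells, and none passed. The type I interferon gene Ifna14 had the smallest p of the list for Tyk2-/-, where it differed by 0.27, and in Tyk2K923E cells it differed by 0.18 (limma adjusted p = 0.368 and 0.472), or by 0.28 without experiment 3. Ifng, the main interferon of NK cells, differed by -0.31 in Tyk2-/- and by -0.17 in Tyk2K923E cells (limma adjusted p = 0.377 and 0.562). The interferon lambda gene Ifnl3 differed by -0.18 in Tyk2-/- and by -0.41 in Tyk2K923E cells (limma adjusted p = 0.584 and 0.148). The mean levels of Ifna14, Ifng and Ifnl3 were low, from 6.01 to 6.71 over the genotypes, where array medians were 5.42 to 5.48. Partners and cofactors of the family, such as the Ets and AP-1 factors that bind composite elements with Irf4 and Irf8, held 22 tested genes of 25 listed. Of these 13 read lower in Tyk2-/- and 18 in Tyk2K923E than in WT cells, with medians of -0.014 and -0.060, and none passed. Prdm1, a repressor that binds elements resembling those of the family, differed by -0.17 in Tyk2-/- against WT cells (limma adjusted p = 0.458). In Tyk2K923E against WT cells, Jun differed by 0.22 and Ikzf3 by -0.25 (limma adjusted p = 0.416 and 0.439), and Ikzf3 by -0.14 without the Tyk2K923E array of experiment 1.

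**Figure D5:**
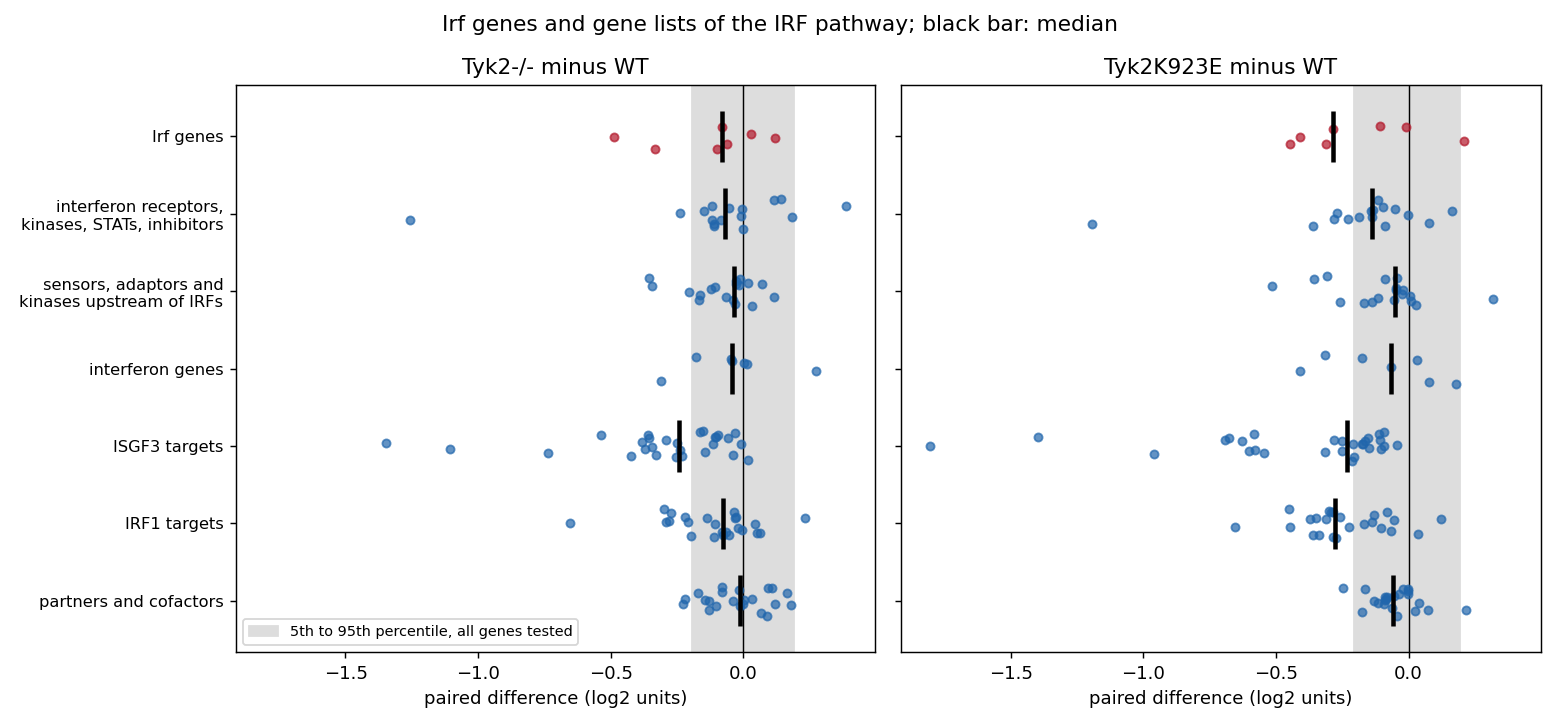
Paired log2 difference of the 7 members and of every tested gene in 6 lists of genes that act with the family, for Tyk2-/- minus WT and Tyk2K923E minus WT, with 1 point per gene, a bar at the list's median and a grey band from the 5th to the 95th percentile of all genes tested. The ISGF3 targets lie below 0 for 27 of 28 genes in Tyk2-/- and for 28 of 28 in Tyk2K923E against WT. These counts are in part set by the filter, and the partners are centred at -0.014 and -0.060.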

How the data were processed

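The deposited values are log2 expression values per probe set, made with RMA in Partek 6.6 per the submitters' processing notes; the version of RMA and the genome build are not given in the sources used here. They were used as deposited. Probe sets were named through the platform annotation: of 41345, 23521 carry 1 gene symbol, 1814 several and 16010 are not listed. Those with 1 symbol that reached the median of their array on 3 or more of the 9 arrays were tested, by the brightest per gene (12579 genes).

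Genotypes were compared with limma 3.58.1 (lmFit and eBayes on all 9 arrays, experiment as a fixed block, threshold 0.05 after Benjamini-Hochberg adjustment) in R 4.3.3 with statmod 1.5.0. The labels' experiment numbers pair the arrays, and same-numbered arrays deviated together from their genotype means (r of 0.383 to 0.787 in 9 pairs, against -0.71 to 0.559 between experiments, which overlaps that range). The number of arrays limits the precision. Every member was named, with Tyk2, up to 4 genes of a list by smallest paired p and the 3 genes most like each member. Cell type markers and some ISGF3 targets with levels near the array medians were named besides. The members and lists were chosen with earlier results of these data known. Motifs were searched in RefSeq start regions (GRCm38.p6) with Python 3.11.15, and figures drawn with matplotlib 3.10.9. The procedure was tested on simulated data. Alternatives were no block or a random block, only the genotypes compared, other filters, median centring, quantile normalisation, an intensity trend, array weights, the mean over probe sets, the dimmer Irf8 probe set (added after the data were seen) and leaving out each array or experiment.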

Additional observations from a re-analysis of the deposited data

How the results depend on the processing

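Of the 21 differences of the members between genotypes, 17 kept their sign under all 22 alternatives and 18 never passed the threshold. Irf9 in Tyk2-/- against WT ranged from -0.53 to -0.45 (limma adjusted p of 0.0343 to 1) and in Tyk2K923E against WT from -0.50 to -0.38 (0.0386 to 0.817); it passed under the 70th percentile filter, the intensity trend and array weights. Irf7 in Tyk2K923E against WT passed under the 70th percentile filter and array weights (limma adjusted p of 0.0405 and 0.0433). Members called in Tyk2-/- and Tyk2K923E against WT, 0 in each, were therefore 1 and 2 with that filter, 1 and 1 with the trend and 1 and 2 with array weights. Genes called, 11 in each, were 4 and 1 with no replicate block, 6 and 2 with only the genotypes compared, 4 and 1 with no filter, 19 and 29 with the higher filter, 22 and 41 with the trend and 26 and 66 with array weights; median centring gave 20 and quantile normalisation 17 for Tyk2K923E. The cause was not tested. Leaving out arrays or experiments gave 3 to 11 genes for Tyk2-/- and 1 to 34 for Tyk2K923E against WT, 2 to 6 between the mutants (3 with all arrays), 0 to 3374 for experiments (3611 with all), 0 members in every comparison of genotypes and 0 to 3 members for experiments. Signs turned for members near 0: Irf2 in Tyk2K923E against WT (-0.021 to 0.011 on leaving out arrays, 0.0016 with array weights), Irf3 in Tyk2K923E against WT (-0.21 to 0.027) and between the mutants (-0.098 to 0.13), Irf4 in Tyk2-/- against WT (-0.077 to 0.16) and Tyk2 in Tyk2K923E against WT (-0.23 to 0.0026). Without the filter, the call of Irf9 between experiments was lost (limma adjusted p = 0.056). Of 954 values of the named list genes under alternatives, 892 kept their sign and call.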

Other observations

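Exact ties between arrays were frequent in the deposited values. Of the 12579 genes tested, 5190 (41.3%) had the same value on at least 2 of the 9 arrays, among them Irf1, Irf2, Irf3 and Irf9. Tyk2 read 8.63 on 3 arrays with the same deposited value, 1 of each genotype. Their origin was not tested.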
